A study of Mus musculus with 6 samples.

Results

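Maps of the contacts between chromatin and the nuclear lamina are compared here, one from fibroblasts treated with shRNA against lamin A and one from fibroblasts treated with shRNA against lamin C. Both maps were made with the same fusion protein, Dam-LmnB1, so the shRNA is the labelled difference between them. They were chosen by their labels and not by any measured value, and they account for 4 of the 6 libraries, in 2 of the 3 maps, of the series. The comparison was made on the 19 autosomes, over 5972542 GATC fragments that were identical in both maps.

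The nuclear lamina is a meshwork of lamin filaments under the inner nuclear membrane. Lamin A and lamin C arise from the Lmna gene by alternative splicing, and lamin B1 comes from Lmnb1. Long stretches of the genome that touch this meshwork are called lamina-associated domains (LADs), and they are mostly gene-poor, late-replicating and weakly transcribed. In DamID, a bacterial adenine methyltransferase (Dam) joined to a lamin methylates GATC sites that come near the lamina, and the methylated fragments are then amplified for sequencing. Dam alone is expressed in parallel cells to give the background of accessible chromatin. The series asks where LADs lie when single lamin isotypes are depleted.

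All cells were mouse embryonic fibroblasts, connective tissue cells cultured from embryos, of strain C57BL/6 and wild-type genotype. One pair of groups received lentiviral shRNA against LmnA and the other pair lentiviral shRNA against LmnC. All of them were selected with puromycin, left to recover, and then transduced with a second lentivirus that carried either Dam alone or Dam-LmnB1. Each of these groups holds 1 library, so each map rests on 1 Dam-only and 1 fusion library. The age of the embryos, the number of embryos pooled and the promoter of the Dam cassette were not given in the labels. No RNA or protein was measured, so neither the loss of lamin A or lamin C nor the identity of the cells could be checked. Unperturbed cells were not analysed here, so a difference between the maps cannot be assigned to a gain in one or a loss in the other. No replicate check exists for any difference below, and no p-value is given. Spreads over chromosomes and errors over fragments describe variation within these libraries.

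The deposited signal of a fragment is a log2 ratio of fusion reads over Dam-only reads, plus a constant for its map of -0.34 in the LmnA RNAi map and 0.21 in the LmnC RNAi map. Library totals are unknown because ratios were deposited. Fragments read in only 1 of the 2 libraries of a map, called single-library fragments below, take extreme values because a very small number was added to both read counts before the log. Their reads leaned to the fusion library in the LmnA RNAi map and to the Dam-only library in the LmnC RNAi map. After LmnA RNAi, 16.8% of fragments were read in the fusion library alone and 8.34% in the Dam-only library alone, with 2807419 and 1375843 reads. After LmnC RNAi the shares were 12.9% and 12.1%, with 1773012 and 2628442 reads. A further 29.4% and 28.4% of fragments held the constant, which stands for no reads or equal reads. Each signal value is therefore given with all fragments and, where it matters, without single-library fragments. Whether unequal depth of the libraries set the offset between the maps was not tested.

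LADs covered more of every autosome after LmnA RNAi than after LmnC RNAi. The share of fragment length in LADs was 66.4% after LmnA RNAi (SD 4.94 over 19 chromosomes) and 57.3% after LmnC RNAi (SD 4.13). The difference averaged 9.07 percentage points (SD 2.59) and had the same sign on 19 of 19 chromosomes. It was largest on chromosome 13 (68.4% against 54.4%), chromosome 3 (73.2% against 60.5%) and chromosome 12 (73.6% against 61.6%), reaching 14.1 points on chromosome 13 and 12.7 points on chromosome 3. Chromosome 7 (65.1% against 62.0%), chromosome 19 (59.4% against 53.1%) and chromosome 4 (66.03% against 59.1%) had the smallest differences, at 3.15, 6.35 and 6.93 points. The chromosomes therefore differed severalfold among themselves, while none turned the order of the maps.

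**Figure D1:**
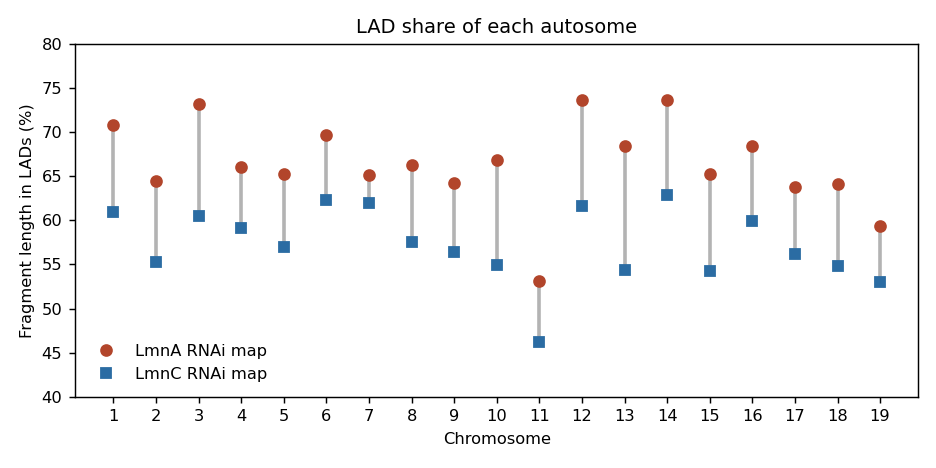
Share of fragment length inside LADs (%, y axis, drawn from 40 to 80) on each autosome (x axis), for the LmnA RNAi map (red circles) and the LmnC RNAi map (blue squares), with a grey line joining the values of 1 chromosome. The red circle lies above the blue square on all 19 chromosomes, with the shortest line on chromosome 7 (3.15 points) and the longest on chromosome 13 (14.1 points).

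The LAD lists followed the deposited signal closely, but at a different level in each map. Signal was averaged over 23944 bins of 100 kb. A single log2 level separated bins lying mostly in LADs from the others with 5.84% of bins on the other side after LmnA RNAi and 6.09% after LmnC RNAi. That level was -0.19 in the LmnA RNAi map and -0.77 in the LmnC RNAi map. Without single-library fragments the separating levels were -0.45 and -0.46, with 6.27% and 6.35% of bins on the other side. On that scale, then, the lists of both maps began at nearly the same log2 ratio. These levels include the constant of each map (-0.34 and 0.21), so their nearness depends on those constants. More bins lay mostly in LADs after LmnA RNAi (16072 against 13898).

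Signal was higher after LmnA RNAi over most of the genome, and the size of the difference depended on the signal level. The median bin had a log2 ratio of 1.21 in the LmnA RNAi map and 0.06 in the LmnC RNAi map, and the median of the bin-by-bin difference was 0.93. The LmnA RNAi signal exceeded the LmnC RNAi signal by more than 0.5 on the log2 scale in 75.8% of bins, and the reverse held in 0.802%. Leaving out single-library fragments left 22.4% higher and 0.0752% lower and a median difference of 0.27. The split turned with the scaling, to 15.6% higher and 32.5% lower once the median bin of each map was set to 0, and to 19.7% and 20.6% after quantile normalization, both of which take away any offset between the maps. With each map's constant subtracted, the median difference was 1.49 in place of 0.93.

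To follow the difference by signal level, bins were ranked on the LmnB1 RNAi map of the same series and cut into 10 equal groups, from group 1 (lowest signal) to group 10 (highest). That map enters neither side of the difference, but it was made with another fusion, Dam-LmnA, after another shRNA. In group 1, far from the lamina, the mean log2 ratio was -2.90 in the LmnA RNAi map and -3.94 in the LmnC RNAi map, a difference of 1.04 (SD 0.14 over 19 chromosomes). In group 4 it was -0.03 and -1.36, and the difference was the largest of the 10 groups at 1.33 (SD 0.11). In group 10, the core of the lamina-bound genome, it was 2.82 and 2.29, and the difference was the smallest at 0.52 (SD 0.05). The maps thus lay farthest apart at intermediate signal and closest where contact was strongest. The range over chromosomes was 1.07 to 1.54 in group 4 and 0.449 to 0.622 in group 10, so the chromosomes of these groups did not overlap. Without single-library fragments the same 3 groups had differences of 0.21 (SD 0.07), 0.45 (SD 0.06) and 0.15 (SD 0.03), and group 5 stood level with group 4 at 0.45. After quantile normalization the differences of the 10 groups ran only from -0.14 to 0.07, and group 4 no longer lay above group 1 (0.01 against 0.07).

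The single-library fragments changed along the same ranking. In group 1, Dam-only fragments held 9.46% of fragment length in the LmnA RNAi map and 13.4% in the LmnC RNAi map. Fusion-only fragments held 2.15% and 1.02%. In group 10, the Dam-only shares were 2.14% and 2.43%, close to each other, and the fusion-only shares 11.9% and 9.65%. In group 4 they were 3.90% and 6.79% for Dam-only and 5.49% and 3.02% for fusion-only fragments. Their part in the course of the difference was not tested beyond the values without them given above.

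**Figure D2:**
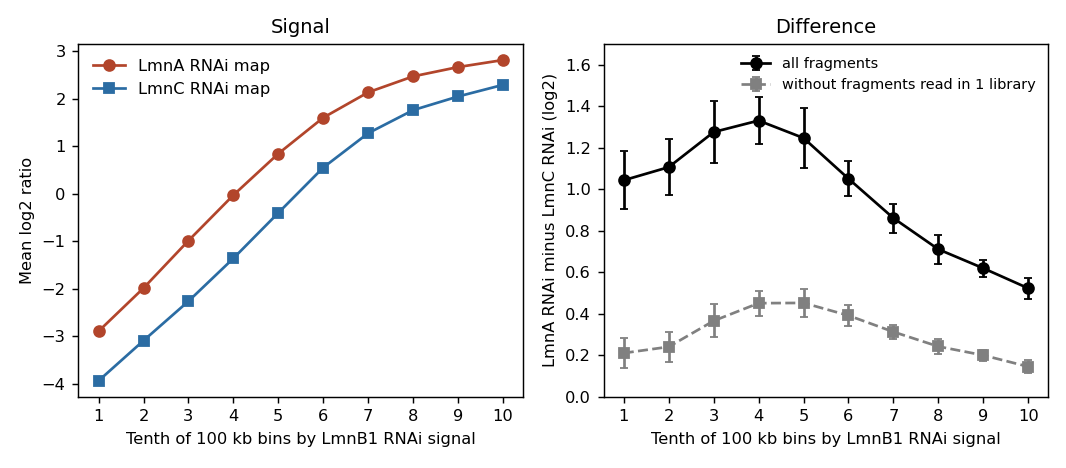
Left, mean log2 ratio (y axis) of the LmnA RNAi map (red circles) and the LmnC RNAi map (blue squares) in 10 equal groups of 100 kb bins ranked on LmnB1 RNAi signal (x axis). Right, their difference with all fragments (black) and without single-library fragments (grey, dashed), with bars of 1 SD over 19 chromosomes. The black points are highest in group 4 (1.33) and lowest in group 10 (0.52).

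The extra LAD coverage sat at the same intermediate levels. In group 4, 58.3% of bin length was in LADs after LmnA RNAi and 24.7% after LmnC RNAi, a difference of 33.6 points (SD 8.04). Group 3 differed by 18.0 points (24.8% against 6.81%) and group 5 by 24.2 points (84.2% against 60.01%). In group 10 both maps had almost all bin length in LADs (99.96% and 99.90%), and in group 1 almost none (1.52% and 0.364%). LAD share changes most readily in bins near the level at which LADs begin, and groups far from it had little room to differ. The place of the extra coverage therefore follows in part from how LADs relate to signal level. Groups 3 to 5 together held 83.3% of the net difference in LAD coverage. The share of a chromosome's bins in these groups was lowest on chromosome 7 (23.8%) and highest on chromosome 13 (38.6%), the chromosomes with the smallest and largest difference in LAD share. Across the 19 chromosomes, which share the same libraries, this share and the LAD difference had r = 0.519. Without chromosomes 13 and 7, r was -0.007 over 17 chromosomes, so the relation rests on that pair.

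The share of LADs found in a single list was highest among short LADs and dropped with length in both lists. There were 1680 LADs after LmnA RNAi and 1699 after LmnC RNAi. Median length was 516 kb (interquartile range 248 to 1148 kb) against 449 kb (230.04 to 948 kb), and mean length 964 against 825 kb. There were 208 and 171 LADs of 2 Mb or more. The longest was 12.98 Mb after LmnA RNAi and 7.72 Mb after LmnC RNAi. Shared sequence made up 84.4% of LmnA RNAi LAD length and 97.6% of LmnC RNAi LAD length, with 253 Mb in LADs after LmnA RNAi only and 34.3 Mb after LmnC RNAi only. The Jaccard index, which divides the shared length by the length covered by either list, was 0.826 (SD 0.0328 over 19 chromosomes).

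A LAD counted as unmatched when it had no base in common with the other list. Of LmnA RNAi LADs under 200 kb, 137 of 304 (45.1%) were unmatched, and of those from 200 to 500 kb, 119 of 517 (23.02%). The share was 30 of 369 (8.13%) from 500 kb to 1 Mb, 7 of 282 (2.48%) from 1 to 2 Mb and 1 of 208 (0.481%) from 2 Mb. LADs of the LmnC RNAi list showed the same order at a lower level, with 32 of 344 (9.30%) unmatched under 200 kb, 15 of 572 (2.62%) from 200 to 500 kb and 1 of 378 (0.265%) from 500 kb to 1 Mb. None of the 234 LmnC RNAi LADs from 1 to 2 Mb and none of the 171 from 2 Mb was unmatched. A longer LAD has more bases that can meet the other list, so part of this order follows from the counting rule. The share of LAD length in common, which does not turn on a single base, went from 50.9% under 200 kb to 93.1% from 2 Mb in the LmnA RNAi list, and from 87.8% to 99.1% in the LmnC RNAi list.

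Unmatched LADs also had lower signal than matched LADs of the same length. Among LmnA RNAi LADs under 200 kb, the median log2 ratio in the LmnA RNAi map was 0.35 for unmatched and 1.44 for matched LADs. From 500 kb to 1 Mb it was 0.42 and 1.89. The LmnC RNAi map had -1.13 and -1.59 over the unmatched LADs of these classes, against 0.43 and 0.85 over the matched ones. These groups were formed from the LAD lists, which follow the signal, so the order is a description. In the LmnB1 RNAi list, which took no part in the grouping, 16.8% of the unmatched LADs under 200 kb had at least 50% of their length in LADs, against 74.3% of the matched ones. From 500 kb to 1 Mb these shares were 30.0% (9 of 30) and 92.03%. Unmatched LADs of the LmnA RNAi list lie outside the LmnC RNAi list by definition. The LmnC and LmnB1 RNAi lists covered similar shares of bin length in signal group 4 (24.7% and 23.7%). Part of this order therefore follows from the grouping.

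The longest unmatched LAD of each length class showed the spread of these cases. The only unmatched LmnA RNAi LAD from 2 Mb lay on chromosome 3 from 38798830 to 40960732 (mm9), with 14.1% of its length inside LmnB1 RNAi LADs. On chromosome 15 from 5197437 to 6164875, the log2 ratio was 0.15 ± 0.11 in the LmnA RNAi map and -1.63 ± 0.10 in the LmnC RNAi map (SE over 2567 fragments), and 47.8% lay in LmnB1 RNAi LADs. On chromosome 1 from 152353574 to 152847729 it was 0.23 ± 0.13 and -1.85 ± 0.13, with no LAD after LmnB1 RNAi. The shortest class was led by chromosome 3 from 27113772 to 27310681, with 0.71 ± 0.20 and -0.64 ± 0.21 and 89.96% in LmnB1 RNAi LADs. In all of these the signal was higher in the map that called the LAD, by more than the fragment error. LmnA RNAi signal was also higher in 94.1% of all bins, so the direction alone does not set these LADs apart. Their differences, from 1.35 to 2.09, were above the median difference over bins of 0.93. These LADs were picked from lists that follow the signal, so this is a description.

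The longest unmatched LADs of the LmnC RNAi list did not all have the higher signal in the map that called them. The level that separated LAD bins was -0.77 in that map and -0.19 in the LmnA RNAi map. Equal values therefore do not mean equal standing in the 2 maps. On chromosome 14 from 57984331 to 58184050, the log2 ratio was -0.66 ± 0.19 in the LmnC RNAi map and 0.90 ± 0.21 in the LmnA RNAi map, so the map without the LAD had the higher signal, also without single-library fragments (-0.52 and 0.15). On chromosome 17 from 25419239 to 25859888 the values were -0.82 ± 0.13 and -0.66 ± 0.13, which overlap within their errors. Only on chromosome 19 from 6384686 to 6913286 was the LmnC RNAi signal higher (-0.81 ± 0.22 against -1.46 ± 0.20), and fragments covered 61.6% of that stretch. LmnA RNAi minus LmnC RNAi had a median of 0.93 over bins. The chromosome 14 difference (1.56) was above that median, and those on chromosomes 17 and 19 (0.16 and -0.65) were below it. The unmatched LADs named here were picked for their length, 1 for each length class and list.

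LADs of the LmnA RNAi map also joined neighbouring LADs of the LmnC RNAi map. Of the 1680 gaps between LmnC RNAi LADs, 394 (23.5%) lay wholly inside an LmnA RNAi LAD. The share dropped with gap length, from 71.4% of 203 gaps under 50 kb and 43.8% of 249 gaps from 50 to 100 kb to 26.8% from 100 to 200 kb, 55 of 423 from 200 to 500 kb, 4.33% from 500 kb to 1 Mb and 0.358% of 279 gaps from 1 Mb. In the reverse direction 129 of 1661 gaps (7.77%) were closed, with 29.2% under 50 kb, 19.3% from 50 to 100 kb and 3.96% from 100 to 200 kb. A single gap over 200 kb was closed that way. Accordingly 300 LmnA RNAi LADs (17.9%) spanned at least 2 LmnC RNAi LADs, and 113 LmnC RNAi LADs (6.65%) spanned at least 2 LmnA RNAi LADs.

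The joining was most frequent among long LADs. Of LmnA RNAi LADs from 2 Mb, 118 of 208 (56.7%) spanned at least 2 counterparts, against 11 of 517 (2.13%) from 200 to 500 kb. The LmnC RNAi list had the same order, with 39 of 171 (22.8%) and 5 of 572 (0.874%). A LAD that spans 2 counterparts must contain the gap between them, so part of this order follows from the counting rule. The LAD with the most counterparts, on chromosome 2 from 104706186 to 108500893, ran over 6 LmnC RNAi LADs that covered 83.5% of it. Its log2 ratio was 2.15 ± 0.05 in the LmnA RNAi map and 1.05 ± 0.05 in the LmnC RNAi map. The longest LmnA RNAi LAD, 12.98 Mb on chromosome 15 from 12309916 to 25290419, ran over 5, which covered 94.4% of it. Of the 292 LmnA RNAi LADs with no counterpart that lay between LmnC RNAi LADs, 215 were in gaps of at least 1 Mb. Such gaps made up 625 of 1007 Mb of gap length, and a whole LAD cannot lie in a gap shorter than itself.

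**Figure D3:**
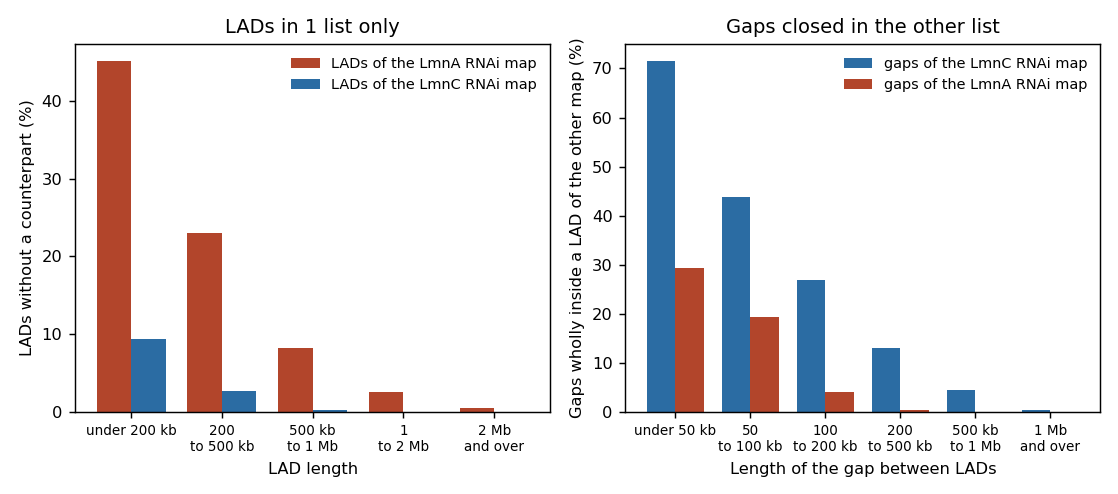
Left, share of LADs with no counterpart in the other list (%, y axis) by LAD length (x axis), for LmnA RNAi LADs (red) and LmnC RNAi LADs (blue). Right, share of gaps between LADs that lay wholly inside a LAD of the other map (%), by gap length, for gaps of the LmnC RNAi list (blue) and of the LmnA RNAi list (red). Both shares drop with length, and the asymmetry between lists holds in each class where a list has any case.

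Stretches of at least 100 kb in LADs of one map and outside those of the other were sorted by where they lay. The LmnA RNAi list held 760 such stretches (211 Mb), of which 294 were whole LADs (87.2 Mb), 326 were LAD edges (88.4 Mb) and 140 lay between LmnC RNAi LADs (35.8 Mb). The LmnC RNAi list held 94 (16.2 Mb), with 48 whole LADs, 32 edges and 14 between LADs. The 3 kinds of LmnA RNAi stretch had near-equal signal, with median log2 ratios of 0.37, 0.42 and 0.46 after LmnA RNAi and -1.36, -1.30 and -1.26 after LmnC RNAi. Signal was higher after LmnA RNAi in 757 of the 760, where 94.1% of all bins were higher, and in 748 without single-library fragments, where 87.0% of bins were. The difference exceeded the genome-wide median difference, as 50% of bins do by definition, in 716 of the 760. The stretches were picked from lists that follow the signal, so these counts describe the stretches and support nothing further.

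Stretches in LmnC RNAi LADs alone had little contrast. Their median log2 ratio was -0.43 in the LmnC RNAi map and -0.10 in the LmnA RNAi map, and signal was still higher after LmnA RNAi in 66 of the 94. The difference exceeded the genome-wide median in only 12 of them, or 23 without single-library fragments. LADs of the LmnB1 RNAi map held at least 50% of 44 of these stretches (46.8%) and of 220 of the 760 LmnA RNAi stretches (28.9%). LmnB1 RNAi LADs covered 58.1% of fragment length on the autosomes (mean over 19, SD 4.48). That is a share of length and not of stretches. Each stretch also lies outside the other list by choice, so its share cannot be read as high or low against that value. Whole LADs found only after LmnC RNAi lay a median of 177 kb from the nearest LmnA RNAi LAD, and those found only after LmnA RNAi a median of 276 kb from the nearest LmnC RNAi LAD.

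Among whole LADs, the 3 longest of the LmnA RNAi list were the chromosome 3 LAD above, the chromosome 14 LAD from 99544129 to 101450517 and a second chromosome 3 LAD from 146530492 to 148282824. Differences there were 1.87, 1.89 and 2.53, and 0.78, 0.72 and 1.01 without single-library fragments. The longest edges lay on chromosome 12 from 95289241 to 96703162, chromosome 17 from 8021536 to 9212410 and chromosome 5 from 11959749 to 13118258. The first and last of these edges were almost wholly in LmnB1 RNAi LADs (99.8% and 98.8%), and the chromosome 17 edge was not (11.3%). On chromosome 17 the log2 ratio was 0.05 ± 0.09 in the LmnA RNAi map and -1.39 ± 0.09 in the LmnC RNAi map, and the LmnA RNAi value turned to -0.33 without single-library fragments, against -0.73.

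Of the stretches between LmnC RNAi LADs, the longest was a gap of 1.14 Mb on chromosome 5 from 44554492 to 45693892, the only gap of at least 1 Mb that was closed. Its log2 ratio was 0.53 ± 0.09 in the LmnA RNAi map and -1.74 ± 0.09 in the LmnC RNAi map (SE over 2801 fragments), and 0.05 against -0.90 without single-library fragments. The next were on chromosome 1 from 166678787 to 167595212 (-0.13 ± 0.10 against -1.77 ± 0.11) and chromosome 12 from 34608634 to 35516031 (0.55 ± 0.11 against -1.51 ± 0.10). The differences of 2.27, 1.64 and 2.07 were above the median difference over bins of 0.93 and beyond the fragment errors. Those errors hold no variation between libraries. The stretches were picked from lists that follow the signal, so the differences only describe them.

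In the other direction, whole LmnC RNAi LADs on chromosome 4 from 120247216 to 120620296 (-0.57 ± 0.16 after LmnC RNAi against 0.09 ± 0.16) and chromosome 7 from 106635072 to 106973865 (0.02 ± 0.14 against -0.17 ± 0.19) followed the chromosome 17 LAD above in length. The longest edges were on chromosome 2 from 92709032 to 93292883, chromosome 14 from 103051196 to 103463626 and chromosome 5 from 99686101 to 99956808. In all 3 the LmnA RNAi signal was the higher one, by 0.37, 1.22 and 1.10, where the median difference over bins was 0.93. Between LmnA RNAi LADs the longest lay on chromosome 7 from 101179363 to 101399056, chromosome 19 from 11505207 to 11702056 and chromosome 17 from 61640701 to 61828633. Among these only the chromosome 19 stretch had higher signal after LmnC RNAi (0.11 ± 0.21 against -0.35 ± 0.19, and 0.07 against -0.46 without single-library fragments).

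Paired borders were compared for their position. Borders of the same side were paired when they were each other's nearest within 100 kb, which gave 2160 pairs, or 64.3% of the 3360 LmnA RNAi borders and 63.6% of the 3398 LmnC RNAi borders. The LmnA RNAi border lay farther out of the LAD by a median of 2.20 kb (interquartile range -4.06 to 17.0 kb). This median follows the pairing limit, with 1.43 kb for pairs within 50 kb and 3.30 kb within 200 kb. It was within 10 kb of its partner in 1096 pairs (50.7%), more than 10 kb farther out in 726 (33.6%) and more than 10 kb farther in in 338 (15.6%). Of the pairs within 10 kb, 81 were identical to the base. The median shift was above 0 on 19 of 19 chromosomes, from 0.341 to 5.71 kb, with an SD of 1.41 kb.

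The shift was alike on both sides and over LAD lengths. On the centromere-proximal side of LADs the median was 2.12 kb and on the telomere-proximal side 2.25 kb. Over LmnC RNAi LADs from under 200 kb to 2 Mb and over, the medians of the 5 length classes ran from 1.84 to 3.44 kb, within the SD over chromosomes of any 1 class. The pairs with the largest shifts outward lay close to the 100 kb limit of pairing. They were the start of a LAD on chromosome 4 (101146865 after LmnC RNAi, 101047135 after LmnA RNAi), the start of one on chromosome 11 (87587754 and 87488628) and the end of one on chromosome 15 (78232729 and 78331812). Over the sequence between these borders, the log2 ratio was higher after LmnA RNAi by 1.57, 1.51 and 0.52, with errors of 0.24 to 0.41 on each map's value over these short stretches. Without single-library fragments the differences were 0.33, 0.47 and 0.0032, so the last of them vanished.

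The largest shifts inward were the starts of LADs on chromosome 9 (105306960 after LmnC RNAi, 105406031 after LmnA RNAi) and chromosome 7 (130557251 and 130653203), and the end of one on chromosome 6 (140370204 and 140274432). Signal over this sequence was higher after LmnA RNAi by 0.71 on chromosome 9 (0.29 ± 0.23 against -0.42 ± 0.21), although the LAD began later in that map. That difference was below the median over bins of 0.93, but above it without single-library fragments (0.49 against 0.27). On chromosome 7 (-0.42 ± 0.31 against -0.81 ± 0.31) and chromosome 6 (-0.80 ± 0.37 against -0.70 ± 0.31) the values overlapped within their errors.

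Signal across borders was averaged at 1920 borders of LmnB1 RNAi LADs of at least 400 kb, which belong to neither list. From 195 kb outside to 195 kb inside, the mean log2 ratio went from 0.09 to 2.17 after LmnA RNAi and from -1.07 to 1.25 after LmnC RNAi. Both maps had their lowest value 25 kb outside the border (-0.69 and -1.99), and most of the step fell within the 10 kb on either side. The difference between the maps was largest 35 kb outside, at 1.31, and was 0.92 at 195 kb inside. Without single-library fragments it was largest 25 kb outside, at 0.43. Outside these borders the maps were thus farther apart than inside. The profile is aligned on the borders of another map, so it does not give the place of the border in either list.

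**Figure D4:**
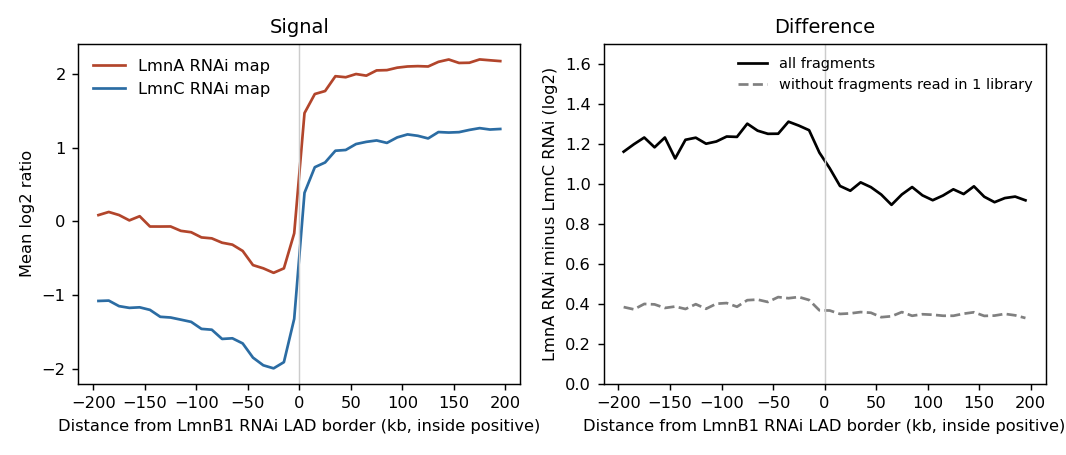
Left, mean log2 ratio (y axis) of the LmnA RNAi map (red) and the LmnC RNAi map (blue) in steps of 10 kb around 1920 borders of LmnB1 RNAi LADs (x axis, kb, positive inside the LAD). Right, their difference with all fragments (black) and without single-library fragments (grey, dashed). Both maps step up at the border, and the black line drops from 1.31 at 35 kb outside to 0.92 at 195 kb inside.

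Position along the chromosome had little bearing on the difference. Each autosome was cut into 10 parts of equal length from its centromeric end, since mouse autosomes carry the centromere at one end. Lamina contact itself fell along the chromosome, with 76.6% of bin length in LADs in part 1 and 59.7% in part 10 after LmnA RNAi, and 65.9% and 51.9% after LmnC RNAi. The signal difference in the 10 parts ran from 0.88 in part 2 to 1.06 in part 3, with an SD over chromosomes of 0.15 to 0.27 within a part. Part 1 exceeded part 10 by 0.04 with an SD over chromosomes of 0.45, so the ends did not differ beyond that spread. The first and last 10 Mb differed between the maps by 0.97 (SD 0.27) and 0.92 (SD 0.24). The LAD share differed most in part 3 (12.1 points, SD 8.10) and least in part 2 (7.59 points, SD 6.51), which are neighbours. These SDs are spreads among chromosomes, and the contrast of the 2 parts within chromosomes was not tested.

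**Figure D5:**
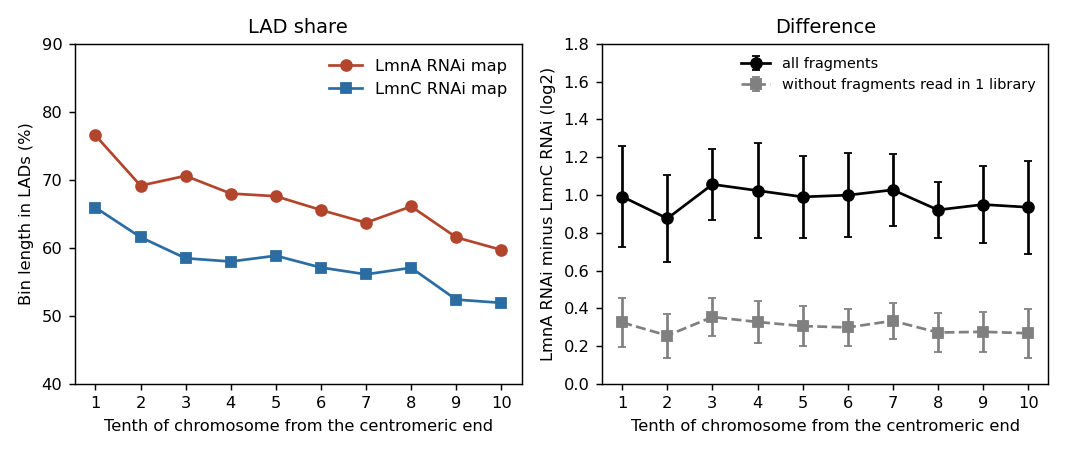
Left, share of bin length in LADs (%, y axis, drawn from 40 to 90) in 10 equal parts of each autosome from the centromeric end (x axis), for the LmnA RNAi map (red circles) and the LmnC RNAi map (blue squares). Right, the difference in mean log2 ratio with all fragments (black) and without single-library fragments (grey, dashed), with bars of 1 SD over 19 chromosomes. LAD share drops toward the distal end in both maps, while the black points stay between 0.88 and 1.06 with overlapping bars.

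At a finer scale the difference varied along each chromosome, and neighbouring bins were alike. The SD of the difference over bins was 0.67, against 0.39 expected from the spread between odd-numbered and even-numbered fragments alone. Differences computed from odd and even fragments, which are read from the same libraries, had r = 0.489 in 100 kb bins and r = 0.858 in 1 Mb windows. Between bins 0.1 Mb apart the difference had r = 0.485, at 1 Mb r = 0.193 and at 10 Mb r = -0.009. The same values without single-library fragments were 0.653, 0.263 and 0.018. Part of this likeness goes with signal level. With the mean difference of each bin's signal group subtracted, r was 0.37 at 0.1 Mb and 0.15 at 1 Mb. Without single-library fragments it was then 0.56 and 0.22. The likeness was thus confined to short distances in both measures.

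In windows of 1 Mb the LmnA RNAi signal was higher in 2367 of 2371. The windows with the largest and smallest differences after centring are given here in deposited values, as a description, since they were picked for these values. The largest lay on chromosome 3 from 147000001 to 148000000, where the log2 ratio was 1.09 ± 0.10 in the LmnA RNAi map and -1.53 ± 0.10 in the LmnC RNAi map (SE over 2371 fragments), and 0.23 against -0.75 without single-library fragments. The whole window was in LADs after LmnA RNAi, and none of it after LmnC RNAi or LmnB1 RNAi. On chromosome 17 from 67000001 to 68000000 the values were 1.35 ± 0.09 and -1.26 ± 0.11, with 84.6% of the window in LADs after LmnA RNAi and 28.2% after LmnC RNAi.

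Chromosome 15 from 33000001 to 34000000 had 0.91 ± 0.11 against -1.67 ± 0.10, and was 96.7% in LADs against 0%. Chromosome 13 from 90000001 to 91000000 had 0.78 ± 0.11 against -1.64 ± 0.11, and chromosome 1 from 73000001 to 74000000 had 0.74 ± 0.10 against -1.66 ± 0.10. Chromosome 4 from 5000001 to 6000000 stood apart, since it was mostly in LADs in both maps (100% and 82.2%) with 1.98 ± 0.10 against -0.42 ± 0.09. In 5 of the 6 windows the log2 ratio was thus above 0 after LmnA RNAi and below -1 after LmnC RNAi, and the 6 differences ran from 2.40 to 2.61.

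The windows with the smallest differences included some of high and some of low signal. Chromosome 14 from 113000001 to 114000000 (1.74 ± 0.12 in the LmnA RNAi map and 1.85 ± 0.12 in the LmnC RNAi map) and chromosome 13 from 87000001 to 88000000 (2.49 ± 0.12 and 2.45 ± 0.11) were wholly in LADs in both maps. Chromosome 7 from 113000001 to 114000000 was in LADs over 74.9% and 70.1% of its length (1.61 ± 0.12 and 1.72 ± 0.11). Chromosome 10 from 79000001 to 80000000 (-3.11 ± 0.12 and -3.12 ± 0.12) was outside LADs in both. Chromosome 17 from 25000001 to 26000000 (-1.88 ± 0.10 and -1.81 ± 0.09) and chromosome 11 from 120000001 to 121000000 (-2.64 ± 0.11 and -2.60 ± 0.12) held no LAD after LmnA RNAi, and 44.1% and 12.2% after LmnC RNAi. All 6 differences were within the fragment errors.

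When both maps were given the same extent of LADs, nearly the same bins were taken. The 13898 bins with the highest signal in each map, as many as lay mostly in LmnC RNAi LADs, had 13151 in common (94.6%), and 747 bins were exchanged in each direction. Without single-library fragments 95.1% were in common. Taking odd fragments of a map against even fragments of the same map gave 95.4% in the LmnA RNAi map and 96.2% in the LmnC RNAi map. Odd fragments of one map against even fragments of the other gave 93.6% and 93.8%. The maps therefore shared fewer bins with each other than the odd and even fragments of either map did. Odd and even fragments of a map are read from the same libraries, so that split holds no variation between libraries. Whether replicate maps of the same shRNA would differ as much was not tested. Most exchanged bins lay in signal groups 4 and 5, with 297 and 321 of those taken after LmnA RNAi and 213 and 388 of those taken after LmnC RNAi. Only bins near the cut are readily exchanged, so their place in the ranking follows largely from the number of bins taken.

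At equal extent the chromosomes no longer all leaned one way. Chromosome 3 kept an excess after LmnA RNAi of 2.81 percentage points of its bins and chromosome 18 of 2.74 points, and chromosome 7 had a deficit, at -3.30 points. Without single-library fragments these were 2.17, 2.17 and -3.44 points. Chromosome 13, which had the largest difference in the LAD lists, kept 0.516 points, and 0.258 without single-library fragments. The mean over 19 chromosomes was 0.025 points by construction, with an SD of 1.44.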

How the data were processed

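The authors deposited a log2 value per GATC fragment. Bowtie and mouse build mm9 are named, without a version, in the submitters' processing notes. How ratios were made, which LAD caller was used and how reads were filtered is not given in the sources used here. From the steps between deposited log2 values, each equals the log2 ratio of fusion and Dam-only reads, both raised by 1e-05, and shifted by the constant of its map. Recovered reads of single-library fragments were whole within a tolerance of 0.02 in 100% of values, and any value beyond 12 in size was read as such a fragment. LADs were called per map, and their deposited starts and ends are in bp.

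Signal was averaged by fragment length over 100 kb bins that were at least 50% covered (Python 3.11.15, numpy 2.4.6, pandas 2.3.3, matplotlib 3.10.9). The step of 0.5 on the log2 scale sets the bins called higher or lower. Centring subtracts each map's median bin, and quantile normalization gives both maps the same distribution. The LAD share counts fragments by their middle. Functions were tested on simulated data.

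Regions are named by rule: the 3 chromosomes with the largest and the 3 with the smallest LAD share difference, and the 6 windows of 1 Mb at each end after centring (at least 90% covered, 3 Mb apart, same sign without single-library fragments). To these come the 3 longest stretches of each kind and direction that were at least 90% covered, the 3 largest border shifts each way, and the longest unmatched LAD of each length class and list. The comparison, the lists and these rules were chosen with earlier results of these data known. No gene is named and no sequence shown, since no genome or annotation of mm9 was used here. Alternatives are in the closing section, and nothing was fitted or tested, since each side has 1 map.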

Additional observations from a re-analysis of the deposited data

How the results depend on the processing

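No paired analysis was possible because each group holds 1 library and each side 1 map, so no replicate could be left out either. Of 64 alternative values, 35 stayed within the spread (1 SD over chromosomes, or 1.5 times for counts), 28 moved and 1 reversed. The cause was not tested for those that moved or reversed, other than where the setting itself sets the count. The difference in LAD share became 14.1 points for LADs whose mean log2 ratio lay above the map's constant (1671 of 1680 LmnA RNAi and 1349 of 1699 LmnC RNAi LADs), and 0.025 points at equal extent, which removes it by construction. Stretches kept from 200 kb numbered 379 and 23 after LmnA and LmnC RNAi, and from 50 kb 207 after LmnC RNAi. The median signal difference was 0.27 without single-library fragments and 0.35 over fragments with unequal reads in both libraries, called read in both below. It was 1.17 with fragments weighted equally, 1.49 with the constant subtracted and 1.60 with single-library fragments valued by their reads. The share of bins higher by more than 0.5 was 22.4% without single-library fragments, 31.3% over fragments read in both, 15.6% after centring and 19.7% after quantile normalization. The share lower, 0.802% as deposited, was 0.0752% without single-library fragments, 0.0919% over fragments read in both, 5.56% with equal weights, 0.0167% with the constant subtracted, 2.93% from reads, 32.5% after centring, 20.6% after quantile normalization, and 2.70%, 0.150% and 0% in bins of 50, 200 and 1000 kb. The group 4 minus group 10 difference of 0.81 was 0.31 without single-library fragments and 0.15 after quantile normalization. Group 4 minus group 1, 0.29 as deposited, was 0.46 when bins were ranked on odd fragments of the 2 maps, and it reversed to -0.0597 after quantile normalization. The correlation of neighbouring bins was 0.653 without single-library fragments. Quantile normalization by level and position, this correlation, borders of LADs of at least 400 kb and the length classes matched at 50% were chosen after seeing the data. Jaccard index, unmatched LADs, border shift and position stayed within their spread under each setting run. GATC density did so without single-library fragments, the only alternative counted for it. After quantile normalization, the differences in its sparsest and densest groups were 0.03 and -0.0023, so most of that contrast went. Depth limits single fragments, with a median of 1 or 2 reads in single-library fragments.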

Other observations

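The density of GATC fragments, which sets how many values a bin rests on, went with the difference between the maps. In the 10 equal groups of bins by density, the group with the fewest fragments (2.09 per kb) had a log2 ratio of 0.02 after LmnA RNAi and -1.09 after LmnC RNAi, a difference of 1.11 (SD 0.08 over 19 chromosomes). The densest group (3.07 per kb) had 2.24 and 1.45, a difference of 0.78 (SD 0.11). Without single-library fragments these differences were 0.42 and 0.21, and after quantile normalization of all fragments 0.03 and -0.0023. Dense bins were also more often in LADs, at 91.5% and 88.0% of bin length in the densest group against 56.3% and 43.8% in the sparsest, after LmnA and LmnC RNAi. Within each of the 10 groups by LmnB1 RNAi signal, the sparsest and densest of 3 equal sets of bins were compared, a narrower range of density (2.20 against 2.65 per kb in group 1). Sparse minus dense bins differed by -0.05 to 0.13 there, above 0 in groups 1 to 4 and 6 and below 0 in the others. Without single-library fragments they differed by -0.0044 to 0.19, with the largest value in group 1. In that measure alone, sparse bins had the larger difference in all groups but group 10.

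The state of single fragments was compared between the maps. Of fragments with unequal reads in both libraries after LmnA RNAi, 84.8% had the same state after LmnC RNAi, where 46.7% of all fragments had it. Of the fragments read in the fusion library alone after LmnA RNAi, 31.4% were so after LmnC RNAi (12.9% of all fragments). Another 35.3% held the constant there, 21.1% had unequal reads in both libraries and 12.2% were read in the Dam-only library alone. Dam-only fragments of the LmnA RNAi map kept that state in 35.6% of cases (12.1% of all LmnC RNAi fragments), and 11.5% were read in the fusion library alone after LmnC RNAi.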
